A study of Mus musculus with 4 samples.

Results

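The 33 genes described here encode the transporters, enzymes and regulators that take glucose into the cell, break it down to pyruvate, and direct pyruvate either to lactate or into the mitochondria. They were named gene by gene from their known roles and not from any measured value, though earlier results of these data were known then. All 33 were found among the 50593 genes of an expression table made from mouse sciatic nerve. The table compares HSF V30M TTR mice, a model of hereditary transthyretin amyloidosis with polyneuropathy, with HSF WT TTR mice. Mice of both groups were of strain 129S1/SvImJ, were 6 months old, and carried a heterozygous deletion of Hsf1, the gene of heat shock factor 1. HSF V30M mice carried in addition a transgene for human transthyretin with the V30M substitution, on a background without endogenous Ttr, while HSF WT mice had no transgene. The labels list 2 mice per group. The methods of the study state n = 4 for the sequencing, and it is not said whether 4 mice were sequenced in each group or in all. The table holds 1 value per gene and group, given as FPKM, a count of sequenced fragments made comparable across transcript lengths and library sizes, and nothing for single mice. No spread between mice can therefore be given for any value below, and no difference between the groups was tested.

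In glycolysis, glucose is phosphorylated, split and oxidised to pyruvate in a chain of cytosolic steps that yields ATP without oxygen. Pyruvate is then reduced to lactate by lactate dehydrogenase or oxidised in the mitochondria by the pyruvate dehydrogenase complex, which pyruvate dehydrogenase kinases switch off. In peripheral nerve, Schwann cells are known to take up glucose and to release lactate through monocarboxylate transporters, and axons can use that lactate as fuel. Several genes of the pathway are classical targets of hypoxia-inducible factor.

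The tissue label was borne out by the markers of myelinating Schwann cells, since Mbp, the gene of myelin basic protein, stood at 3854 FPKM in HSF V30M against 3441 in HSF WT, Pmp22 at 2252 and 2440, and Prx, the gene of periaxin, at 899.9 and 730.0. Mouse Ttr was listed at 6.10 FPKM in the group labelled HSF V30M, which is described as lacking it, and at 0 in the group labelled HSF WT. The human transgene has no row of its own in a mouse annotation. Whether its reads were counted in the row of mouse Ttr was not tested. Groups are therefore named below as they are labelled, and each direction rests on those labels. Hsf1 stood at 7.94 FPKM in the group labelled HSF V30M against 15.0 in HSF WT, although both groups are described with the same deletion. Low FPKM values fell in steps that gave the worth of 1 fragment in each library. By these steps the 2 libraries of HSF V30M differed in depth 1.18-fold and those of HSF WT 1.35-fold, and the deeper HSF V30M library was 1.23 times as deep as the deeper HSF WT library. In bulk tissue, fewer cells of a type and less RNA per cell cannot be told apart.

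The glycolysis and lactate genes as a group stood at nearly the same level in both groups, and 5 genes were past a fold of 1.5. A gene was counted as past the fold when its ratio on the FPKM + 1 scale was at least 1.5 in either direction and its mean FPKM was at least 1. With a mean FPKM under 1, Aldoc was left out of the counts, and the other 32 genes entered them. Eno1 was the 1 gene past the fold in the higher direction, where 8.22% of all 15620 genes with the same minimum were past it. Pgam2, Ldha, Slc16a1 and Pdk1, 4 genes in all, were past it in the lower direction, where 8.44% of all genes were. In both directions together this made 5 of 32 genes, or 15.6%, against a background of 16.7%, so the share of these genes past the fold was close to that of any gene. At a mean FPKM of at least 5, 4 of 28 genes were past it, against a background of 13.5%.

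The median log2 ratio of HSF V30M to HSF WT, on the FPKM + 1 scale, was -0.06 over the 32 genes and 0.00 over all genes. The genes lay on both sides of 0, with 15 above and 17 below. Their median distance from 0 was 0.19 on the log2 scale, against 0.23 for all genes and 0.21 for all genes whose mean FPKM was at least 5. A log2 ratio within 0.2 of 0 was found in 18 of them. Together the 33 genes summed to 2435 FPKM in HSF V30M against 2360 in HSF WT. They were mostly well expressed, with a median mean FPKM of 26.5 against 8.77 for all genes with a mean of at least 1, and 8 of them had a mean of at least 100.

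**Figure D1:**
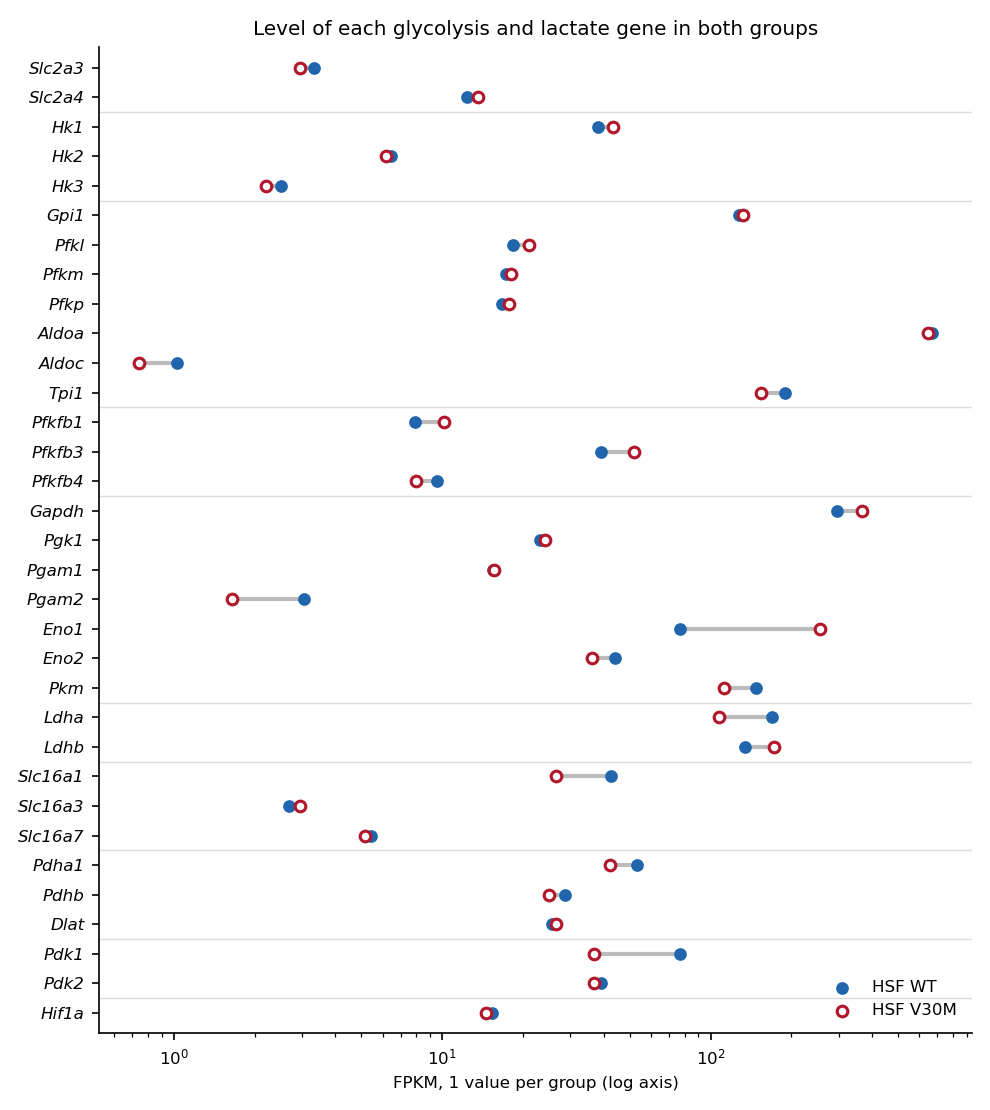
FPKM of each of the 33 genes on a log axis, in the order of the pathway from glucose entry to Hif1a, with grey lines between functional groups, a filled point for HSF WT and an open point for HSF V30M, 1 value per group. The points of most genes touch, while the open point of Eno1 lies far to the right of its filled point and those of Pdk1, Ldha, Slc16a1 and Pgam2 lie to the left.

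**Figure D2:**
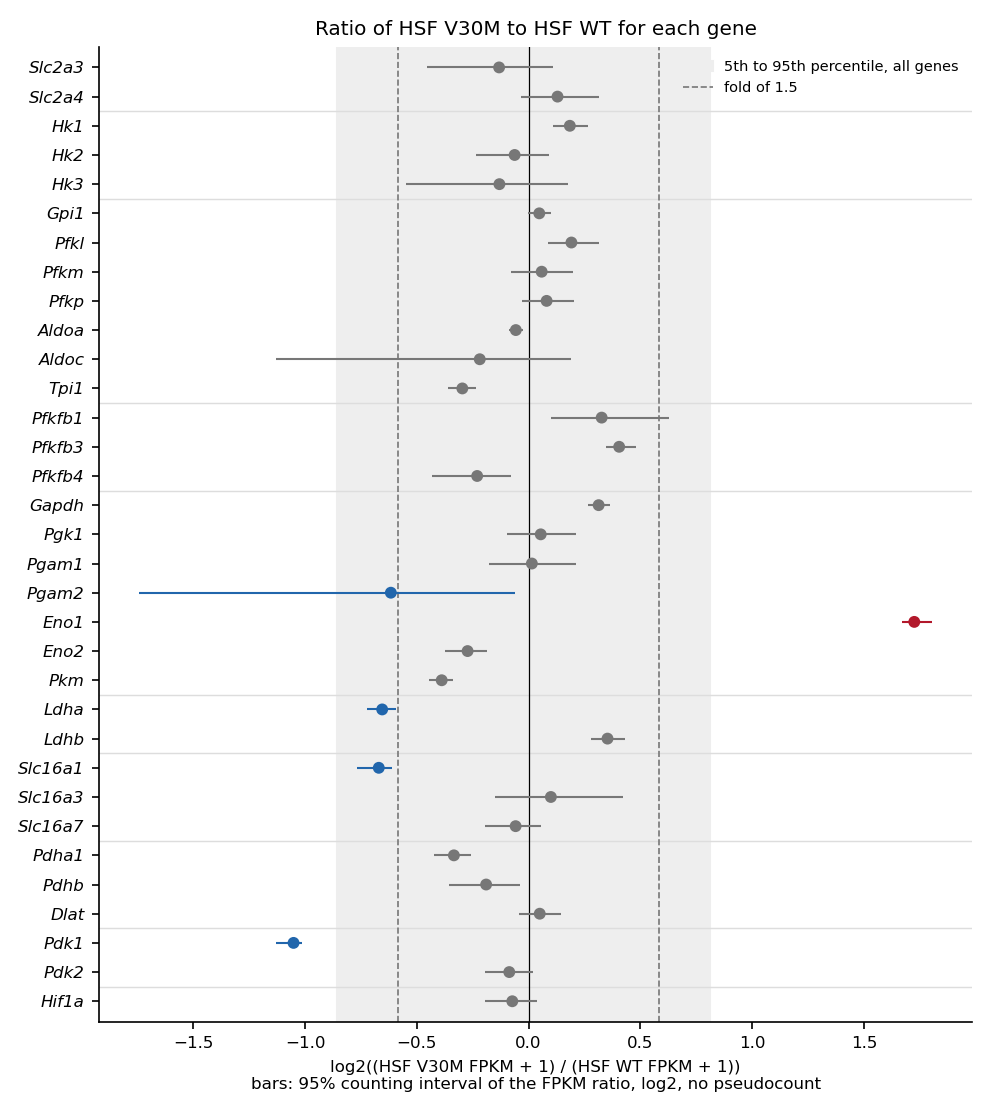
Log2 ratio of HSF V30M to HSF WT on the FPKM + 1 scale for each gene, with bars for the 95% counting interval of the ratio of the FPKM values themselves, dashed lines at a fold of 1.5, and a grey band from the 5th percentile (-0.86) to the 95th percentile (0.81) of all genes. Eno1 at 1.73 and Pdk1 at -1.05 lie outside the band, and Pgam2, Ldha and Slc16a1 lie between the dashed line and its edge.

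The genes of glucose entry and phosphorylation differed little. Slc2a3 encodes GLUT3, the glucose transporter of neurons, and had 2.94 FPKM in HSF V30M against 3.32 in HSF WT. Slc2a4, the gene of the insulin-dependent transporter GLUT4 of muscle and fat, had 13.7 and 12.4. Of the hexokinases, which trap glucose in the cell, Hk1 was the main form with 43.3 FPKM in HSF V30M against 38.0 in HSF WT, followed by Hk2 with 6.15 and 6.47 and the leukocyte form Hk3 with 2.20 and 2.50. The log2 ratios of these 5 genes ran from -0.13 to 0.18. The ratios of Slc2a3, Slc2a4, Hk2 and Hk3 had 95% counting intervals that included 1.

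Upper glycolysis was led by Aldoa, the aldolase that splits fructose bisphosphate and the most abundant of all 33 genes, at 645 FPKM in HSF V30M against 671 in HSF WT. Gpi1, which turns glucose phosphate into fructose phosphate, had 132 and 127. The phosphofructokinases of the committing step stood at similar levels to each other, Pfkl at 21.1 and 18.3, Pfkm at 18.1 and 17.4 and Pfkp at 17.7 and 16.7, and all were slightly higher in the group labelled HSF V30M. Tpi1, which interconverts the products of aldolase, had 154 FPKM in HSF V30M against 190 in HSF WT, a log2 ratio of -0.30. Aldoc, the brain aldolase, had the lowest level of all, with 0.74 and 1.02, or 41 to 49 fragments in a library of HSF V30M and 41 to 55 in one of HSF WT. No gene of this segment was past the fold.

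The bifunctional PFKFB enzymes set the level of fructose 2,6-bisphosphate, the activator of phosphofructokinase. Pfkfb3, the form with the highest kinase activity, was also the main form in nerve with 51.8 FPKM in HSF V30M against 38.9 in HSF WT, a log2 ratio of 0.41 that was within the fold. Pfkfb1 had 10.2 and 7.91, with a log2 ratio of 0.33, and Pfkfb4 had 8.0 and 9.56, with a log2 ratio of -0.23. The forms thus lay on both sides of 0.

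In lower glycolysis, Gapdh, the dehydrogenase that makes the first NADH of the pathway, had 367 FPKM in HSF V30M against 296 in HSF WT, a ratio of 1.24 with a 95% counting interval of 1.20 to 1.29. Pgk1, which yields the first ATP, stood at 24.1 and 23.2. The ubiquitous phosphoglycerate mutase Pgam1 stood at 15.6 and 15.4, the closest pair of all. The muscle mutase Pgam2 was low, with 1.64 in the group labelled HSF V30M against 3.05 in HSF WT, a log2 ratio of -0.62. These values correspond to 23 to 27 fragments in a library of HSF V30M and 30 to 40 in one of HSF WT, and the ratio of HSF WT to HSF V30M was 1.86 with a 95% counting interval of 1.04 to 3.35. Beside this, 12 markers of skeletal muscle summed to 49.7 FPKM in HSF V30M against 178 in HSF WT, and their part in the Pgam2 value was not tested. Eno2, the neuronal enolase, had 36.3 and 44.1, and Pkm, the pyruvate kinase that ends the pathway, had 113 and 148, log2 ratios of -0.27 and -0.39.

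Eno1, the ubiquitous enolase, had the largest difference among the 33 genes, with 256 FPKM in the group labelled HSF V30M against 76.7 in HSF WT. The ratio was 3.34 with a 95% counting interval of 3.19 to 3.50, and the log2 ratio on the FPKM + 1 scale was 1.73. The other enolases of the table were lower in that group, Eno2 as given above and the muscle form Eno3 with 9.55 FPKM and 12.5. Eno1 made up 84.8% of the summed enolase FPKM in HSF V30M and 57.5% in HSF WT.

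The level of Eno1 has to be read beside those of its near-identical copies. A search of the GENCODE M21 transcripts with each coding sequence found copies of at least 98% identity for 7 of the 33 genes, namely Gpi1, Gapdh, Pgk1, Pgam1, Eno1, Pkm and Ldhb. Of these 46 copies, 38 belonged to Gapdh, and 4 had an FPKM over 5 in either group, Gm13394 of Gapdh, Eno1b and Gm4735 of Eno1, and Gm5514 of Ldhb. Stretches of 60 bases of a gene and of its copy are shown to let the reader see how few bases separate their reads. Capitals mark the bases that differ, and positions are counted from 1 at the first base of the coding sequence of the gene. Genome positions are those of GENCODE M21 on GRCm38, and each stretch is given in the direction of the transcript and lies in coding exons of the gene.
Gapdh, chr6:125161715-125166467, minus strand, coding bases 316 to 375: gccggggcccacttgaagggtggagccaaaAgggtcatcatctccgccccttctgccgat
Gm13394, chr2:28933610-28934609, minus strand, same bases: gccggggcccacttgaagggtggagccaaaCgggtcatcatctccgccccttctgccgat
Eno1, chr4:150236721-150248879, plus strand, coding bases 1198 to 1257: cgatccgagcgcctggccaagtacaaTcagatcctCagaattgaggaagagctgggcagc
Gm4735, chr2:80837141-80838442, plus strand, same bases: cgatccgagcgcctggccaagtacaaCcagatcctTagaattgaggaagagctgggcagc
Ldhb, chr6:142490249-142507957, minus strand, coding bases 847 to 906: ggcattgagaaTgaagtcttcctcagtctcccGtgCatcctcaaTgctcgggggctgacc
Gm5514, chr19:21937380-21938381, plus strand, same bases: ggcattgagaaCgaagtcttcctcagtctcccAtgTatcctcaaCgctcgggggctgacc

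Gm13394, annotated as a processed pseudogene, differed from Gapdh at 1 of 999 coding bases, the A346C in the stretch above. Gm4735, also a processed pseudogene, differed from Eno1 at 5 of 1302 bases, of which T1224C and C1233T are shown. Gm5514 differed from Ldhb at 20 of 1002 bases, and the stretch holds 4 of them. A read that covers none of these positions is the same in gene and copy. How the authors' programs divided such reads is not given in the sources used here.

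The copies did not have the same levels in both groups. Gm13394 was listed at 0 FPKM in the group labelled HSF V30M and at 69.7 in HSF WT. Eno1b, which is annotated as protein coding and is 99.4% identical to Eno1, had 0.03 and 27.2, and Gm4735 had 0.84 and 19.5. Gm13394, Eno1b and Gm4735 were thus nearly empty in HSF V30M and held fragments in HSF WT. Other copies of Gapdh differed in either direction. Among them, Gm2451 had 1.66 FPKM in HSF V30M and 0 in HSF WT, while Gm4691 had 0.11 and 0.470. Gm5514 of Ldhb was higher in HSF V30M, with 103 FPKM against 1.04 in HSF WT, on a table locus of only 306 bases. The copies of Gpi1, Pgk1, Pgam1 and Pkm had FPKM values between 0 and 1.93.

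When the fragments of each gene and of its copies of at least 98% identity were added, at the length of the gene, Eno1 stood at 256 in HSF V30M against 112 in HSF WT. Its ratio came to 2.29 and its log2 ratio to 1.19, still past the fold and the largest of the 33 genes. The copies held 0.208% of the pooled Eno1 level in HSF V30M and 31.6% in HSF WT. Pooled Gapdh stood at 373 in HSF V30M against 345 in HSF WT, and its log2 ratio went from 0.31 to 0.11, with 1.45% and 14.3% of the level from copies. Pooled Ldhb stood at 182 and 134, with a log2 ratio of 0.43 in place of 0.35. With copies from 90% identity, the log2 ratios were 1.19, 0.11 and 0.43. The pooling was chosen after the values had been seen.

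**Figure D3:**
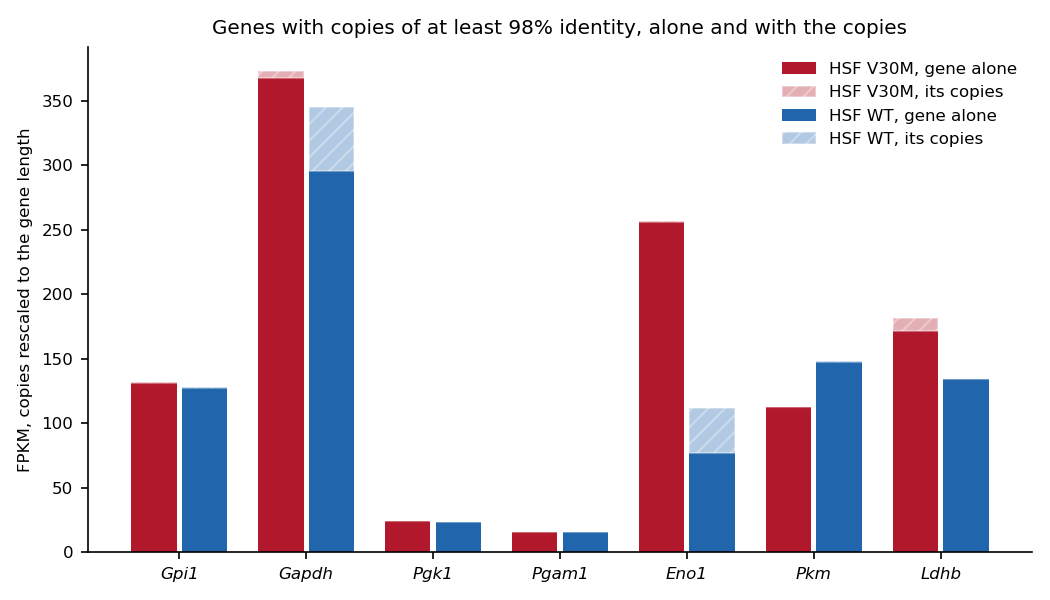
FPKM of the 7 genes with copies of at least 98% identity, as bars from 0 with solid colour for the gene alone and hatched colour for its copies rescaled to the length of the gene, HSF V30M in red and HSF WT in blue, 1 value per group. The hatched part is visible for Gapdh and Eno1 in HSF WT and for Ldhb in HSF V30M, and the pooled bar of Eno1 is 256 in HSF V30M against 112 in HSF WT.

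The genes of lactate dehydrogenase differed in opposite directions. Ldha, the form that favours lactate production, had 107 FPKM in the group labelled HSF V30M against 170 in HSF WT, so that HSF WT was 1.58 times as high, with a 95% counting interval of 1.51 to 1.65 and a log2 ratio of -0.66. Ldhb, the form that favours the return of lactate to pyruvate, had 172 and 134, a ratio of 1.28 with a 95% counting interval of 1.22 to 1.35. The ratio of Ldha to Ldhb was 0.625 in HSF V30M against 1.26 in HSF WT. Ldhb was thus the more abundant form in the first group and Ldha in the second, while the summed FPKM of lactate dehydrogenase genes was similar, at 279 and 304. Ldhc, the testis form, was listed at 0 and 0.188.

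Lactate crosses the membrane through the monocarboxylate transporters. Slc16a1 encodes MCT1, the main form of Schwann cells, and had 26.4 FPKM in the group labelled HSF V30M against 42.7 in HSF WT, a ratio of HSF WT to HSF V30M of 1.61 with a 95% counting interval of 1.53 to 1.70 and a log2 ratio of -0.67. Slc16a3, which encodes the lactate exporter MCT4, had 2.94 and 2.68, and Slc16a7, which encodes the neuronal importer MCT2, had 5.17 and 5.42. The minor forms thus stood at similar levels in the groups, and the summed FPKM of the 3 transporters was 34.6 in HSF V30M against 50.8 in HSF WT. Of the partner genes of lactate and pyruvate transport, Emb, the gene of embigin, a chaperone of monocarboxylate transporters, was also past the fold in the lower direction, with 4.97 and 8.64. Bsg, the gene of basigin, the chaperone of MCT1, was within it, with 214 and 245.

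At the entry to the mitochondria, the 3 genes of the pyruvate dehydrogenase complex were within the fold. Pdha1, the gene of the catalytic alpha subunit, had 42.1 FPKM in HSF V30M against 53.4 in HSF WT. Pdhb, its beta partner, had 25.1 and 28.8, and Dlat, the gene of the acetyl transferase core, had 26.5 and 25.6.

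Pdk1, a kinase that inactivates the complex and a classical hypoxia target, was the lowest of the 33 genes by ratio. It had 36.7 FPKM in the group labelled HSF V30M against 77.2 in HSF WT, so that HSF WT was 2.10 times as high with a 95% counting interval of 2.02 to 2.19, and the log2 ratio was -1.05. Its paralogue Pdk2 had 36.8 and 39.1. Pdk1 and Pdk2 were therefore equally abundant in HSF V30M, with a ratio of 0.999, while Pdk1 was the higher in HSF WT, with a ratio of 1.97. The other kinase genes, Pdk3 with 7.55 and 8.73 and Pdk4 with 24.0 and 27.8, were within the fold.

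**Figure D4:**
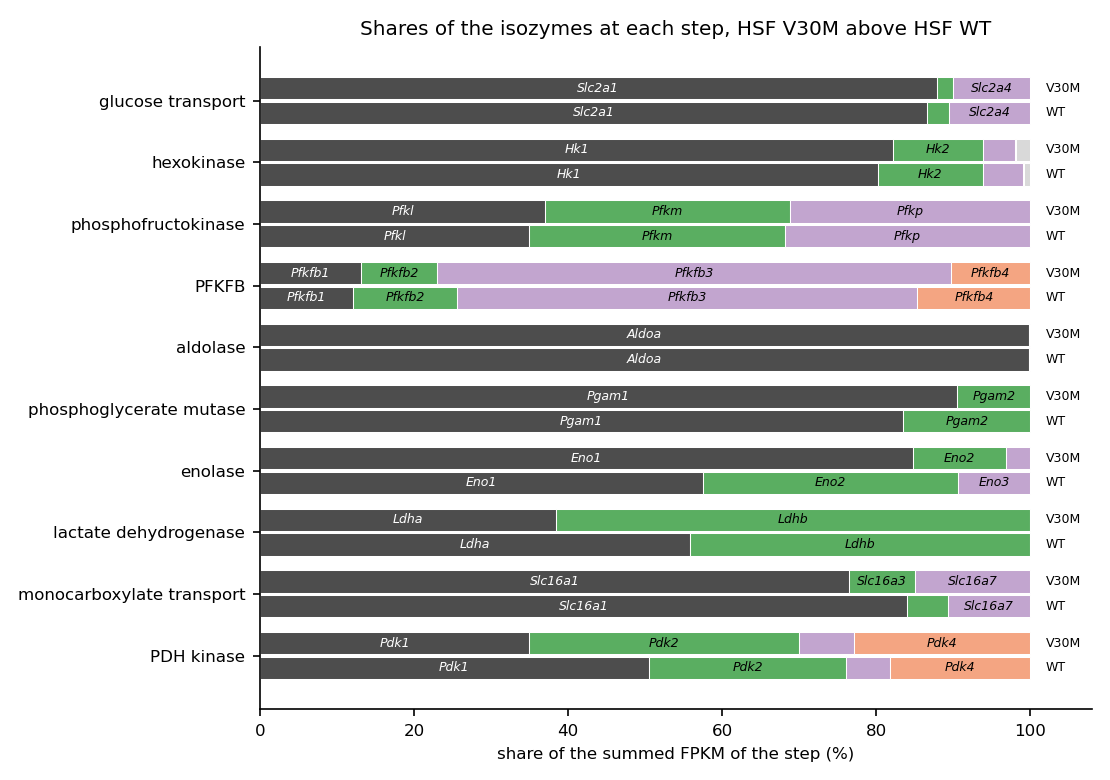
Share of each isozyme gene in the summed FPKM of its step, in percent, with the HSF V30M bar above the HSF WT bar, 1 value per group, and genes under 8% left without a name. Eno1 takes 84.8% of enolase in HSF V30M and 57.5% in HSF WT, Ldha 38.5% and 55.8% of lactate dehydrogenase, and Pdk1 35.0% and 50.5% of the kinases, while Aldoa, Hk1 and Slc2a1 lead their steps in both groups.

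At most steps the leading isozyme was the same in both groups. Aldoa held 99.9% and 99.8% of the aldolase FPKM in HSF V30M and HSF WT, Pgam1 held 90.5% and 83.5% of phosphoglycerate mutase, and Hk1 held 82.2% and 80.2% of hexokinase. Glucose transport was led by Slc2a1, the gene of GLUT1, which is not among the 33 genes and had 120 FPKM and 101. Lactate dehydrogenase was the step at which the leading form differed by name, and at the kinases Pdk2 led Pdk1 in HSF V30M only by 36.8 to 36.7.

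Hif1a, the gene of the oxygen-regulated subunit of hypoxia-inducible factor 1, had 14.6 FPKM in HSF V30M against 15.4 in HSF WT, a log2 ratio of -0.07. Its protein is regulated mainly by degradation, which RNA does not show. Of the 9 listed regulators of the hypoxia pathway none was past the fold, and the 2 most abundant, Epas1 with 42.5 and 36.7 and Egln1, a prolyl hydroxylase, with 40.2 and 34.9, were slightly higher in the group labelled HSF V30M. Of 12 hypoxia-responsive genes outside glycolysis, 1 was past the fold in the higher direction, the stress gene Ddit4 with 21.5 and 9.51, and none in the lower. Car9, a gene with a strong response to hypoxia, had 1.04 and 1.84, and Vegfa had 29.0 and 27.7.

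The promoters of Ldha, Slc16a1 and Pdk1, the 3 genes past the fold in the lower direction with an FPKM over 20 in both groups, are shown because hypoxia-inducible factor binds the cores ACGTG and GCGTG. The sequences are the 150 bases before the first start that the RefSeq promoter table on GRCm38.p6 lists for each gene, all on the plus strand. For Ldha this start lies inside the gene as GENCODE M21 gives it, which begins at base 46841475. Capitals mark either core on either strand.
Ldha, chr7:46845654-46845803: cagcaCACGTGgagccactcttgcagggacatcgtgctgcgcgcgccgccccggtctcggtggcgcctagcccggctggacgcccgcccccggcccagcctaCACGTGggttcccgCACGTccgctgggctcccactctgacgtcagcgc
Slc16a1, chr3:104638514-104638663: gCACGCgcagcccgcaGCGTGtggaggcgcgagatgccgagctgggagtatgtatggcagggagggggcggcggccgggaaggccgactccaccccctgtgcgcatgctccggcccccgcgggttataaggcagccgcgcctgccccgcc
Pdk1, chr2:71873074-71873223: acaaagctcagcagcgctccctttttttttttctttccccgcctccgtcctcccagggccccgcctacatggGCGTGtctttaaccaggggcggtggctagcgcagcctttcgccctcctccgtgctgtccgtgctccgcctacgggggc

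In the 250 bases before that start, Ldha held ACGTG 5 times, where a CACGTG carries the core on both strands and counts on each, and GCGTG 0 times. Slc16a1 held each core 2 times, and Pdk1 held GCGTG 1 time and ACGTG 0 times. Eno1 held GCGTG 1 time, and Pgam2 held neither. Counting the first listed promoter of each gene, ACGTG was held by 12 of the 30 genes that have a promoter in the RefSeq table, or 40.0%, while 16.6% of all 27025 genes held it. GCGTG was also held by 12 of the 30, while 28.2% of all genes held it. The 27025 genes were not limited to genes expressed in nerve, so these shares are not matched for expression. A match is a run of letters and was not tested for binding, and genes with and without a core were found among those within the fold.

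The neighbouring pathways were described by the same rule. Over 10 lists of such genes, 92 of 103 had a mean FPKM of at least 1. Of the 92, 6, or 6.52%, were past the fold, a smaller share than the background of 16.7%. These shares are not matched for level, and the background was 13.5% at a mean FPKM of at least 5. None of the 5 expressed companions of glycolysis was past the fold. The most abundant of these were Slc2a1, given above, and Bpgm, the bisphosphoglycerate mutase, with 12.5 FPKM in HSF V30M against 10.7 in HSF WT. Of the 7 partners of lactate and pyruvate transport, 2 were lower past the fold, Emb and Slc16a6, an orphan transporter with 1.20 and 2.52. None of the other 7 genes around the pyruvate dehydrogenase complex was, led by Pdk4 and Dld, the gene of its E3 subunit, with 13.1 and 19.0.

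Of the 8 genes of the pentose phosphate pathway, which branches from glucose 6-phosphate and yields NADPH, Pgd was past the fold in the lower direction, with 36.3 FPKM in the group labelled HSF V30M against 60.03 in HSF WT. None of the 14 glycogen genes was past it, and the 2 most abundant, the phosphorylase Pygb with 40.8 and 45.3 and the phosphorylase kinase subunit Phkb with 23.5 and 17.9, lay on opposite sides of 0. None of the 4 expressed gluconeogenesis genes was past it either, led by Pcx, pyruvate carboxylase, with 63.2 and 70.4, and Pck1 with 67.7 and 60.2. In the list of 17 genes for the tricarboxylic acid cycle, Mdh1 was higher past the fold with 69.7 and 40.0. Suclg1, a succinyl-CoA ligase subunit, was lower past it with 46.4 and 86.6. Mdh1 encodes the cytosolic malate dehydrogenase, while Mdh2, the gene of the mitochondrial form in the cycle, was within the fold with 65.0 and 72.7. Of the 9 expressed regulators of energy sensing none was past it, led by Txnip, an inhibitor of glucose uptake, with 424 and 339, and Stk11, the kinase LKB1, with 89.8 and 83.5. The medians of the 10 lists ran from -0.23, in the pentose phosphate pathway, to 0.20, among the hypoxia regulators.

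**Figure D5:**
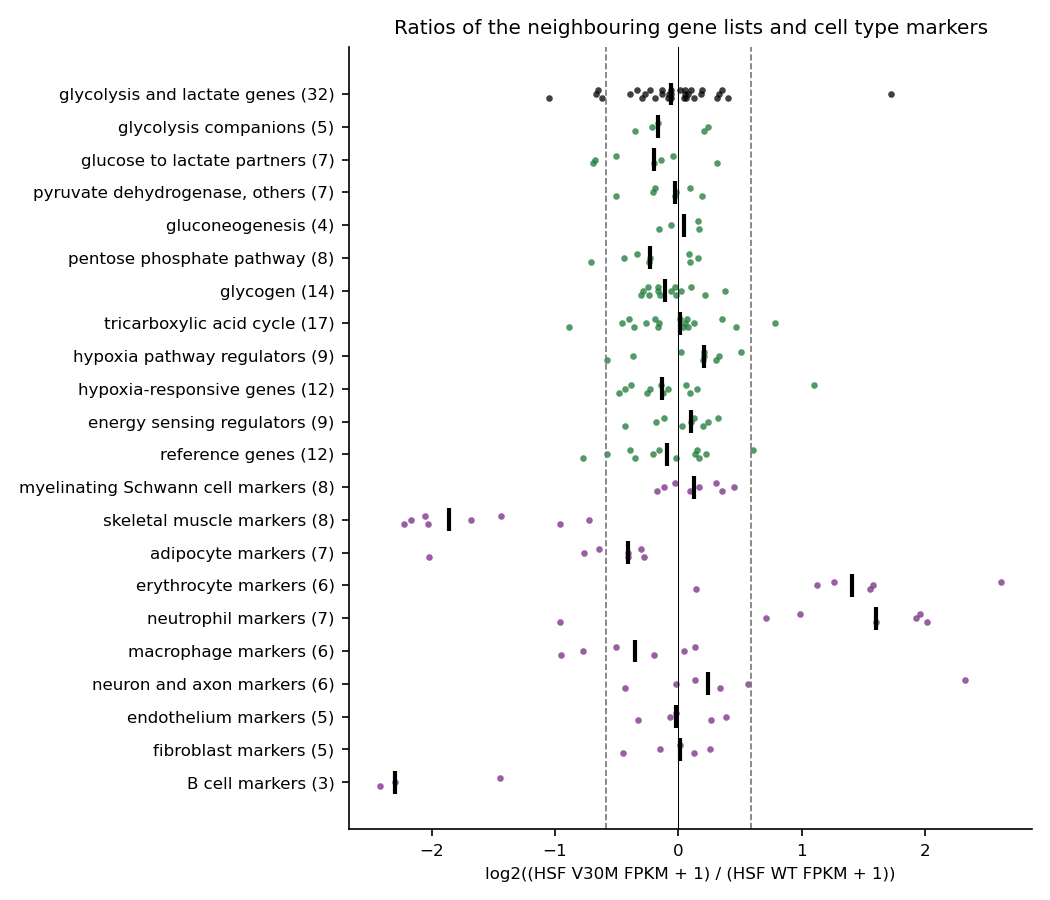
Log2 ratios of HSF V30M to HSF WT on the FPKM + 1 scale for the single genes of each list at a mean FPKM of 1 or more, with the number of genes in brackets, the median as a black bar, and dashed lines at a fold of 1.5. The medians of the pathway lists lie between -0.23 and 0.20, while those of the skeletal muscle, erythrocyte, neutrophil and B cell markers lie at -1.86, 1.40, 1.60 and -2.29.

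Gapdh is often used as a reference, so it was set beside other reference genes. Its log2 ratio of 0.31 was below that of Rpl13a at 0.60 and above those of Ppia at 0.22, Actb at 0.15 and Tfrc at 0.13. Below 0 were Hprt at -0.02, Ywhaz at -0.16, Tbp at -0.20, B2m at -0.36, Gusb at -0.39 and Rplp0 at -0.58. The reference genes thus lay on both sides of 0, as did the 33 genes, whose log2 ratios without Eno1 and Pdk1 ran from -0.67 to 0.41. When the groups were scaled to the same Gapdh, the median of all genes shifted to -0.27, that of the 32 genes to -0.32, and 8 of them, or 25.0%, were past the fold against 22.5% of all genes, Tpi1, Pkm and Pdha1 having joined in the lower direction. When they were scaled to the same median of the other reference genes, the median of the 32 genes was 0.03 against 0.08 for all genes. Only Eno1 at 1.82 and Pdk1 at -0.96 were then past the fold, or 6.25% against 17.5% of all genes, while Slc16a1 at -0.58, Ldha at -0.56 and Pgam2 at -0.56 came just within it. All 5 genes kept their direction under each scaling tried.

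Markers of other cell types differed between the groups, and their part in the values above was not tested. All 8 expressed of 12 skeletal muscle markers were lower past the fold in the group labelled HSF V30M, with a summed FPKM of 49.7 in HSF V30M against 178 in HSF WT. Creatine kinase Ckm had 8.97 and 43.8, Mylpf 7.55 and 33.9, and Tnnt3 10.9 and 22.2. The muscle forms Pgam2 and Eno3 and the muscle phosphorylase Pygm, with 15.1 and 15.4, stood beside these. Of 7 adipocyte markers, 3 were lower past the fold, and the list summed to 2438 and 3359, with Cfd at 1188 and 1467, Fabp4 at 462 and 722 and Adipoq at 319 and 543. Of 6 erythrocyte markers, 5 were higher past the fold, and the list summed to 291 and 101, with Hbb-bs at 111 and 37.1, Hba-a1 at 94.0 and 30.8 and Hba-a2 at 60.3 and 24.6. Of 7 neutrophil markers, 6 were higher and 1 was lower, with sums of 107 and 32.3 and with S100a9 at 59.0 and 13.8, Ngp at 14.4 and 2.96 and S100a8 at 12.6 and 3.48.

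None of the 8 Schwann cell, 5 endothelial or 5 fibroblast markers was past the fold. The endothelial list summed to 113 FPKM in HSF V30M against 115 in HSF WT, and the fibroblast list to 1987 and 1950. Of 6 macrophage markers, 2 were lower past the fold, with sums of 84.9 and 113. All 3 expressed of 4 B cell markers were lower, with sums of 1.79 and 18.4. Among 7 neuronal markers 1 was higher past the fold, Tubb3 with 9.68 and 1.14, and the list summed to 28.4 and 20.9. None of the 4 keratinocyte markers had a mean FPKM of 1, and Krt5 was at 0 in HSF WT.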

How the data were processed

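RNA of sciatic nerve was sequenced by the authors from libraries made with Ion Torrent protocols. The submitters' processing notes name STAR, Cufflinks, Cuffdiff and the genome build GRCm38. Their versions and options are not given in the sources used here. The authors deposited 1 Cuffdiff table with 1 FPKM per gene and group. Its 4 columns of the authors' own comparison (a test statistic, a log2 fold change, p-values and q-values) were not used. Decimal commas were read as points, columns were read by number because the header is incomplete, and 23 genes without an estimate were left out.

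Ratios were taken as log2((HSF V30M + 1) / (HSF WT + 1)), which understates the change of low genes. With 1 value per group no test was possible. Intervals at 95% are exact (Clopper-Pearson) and cover counting error only. They rest on the fragments a library would hold, from the worth of 1 fragment in genes with a single transcript of 350 to 600 bases, less 200 bases. Of the low values used for it, 98.9% in HSF V30M and 100.0% in HSF WT lay within 5% of 1 of 2 steps, and a range of fragments spans both libraries.

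Copies were searched with blastn 2.17.0 at 90% identity over at least 50% of the coding bases. Only annotated pseudogenes, and protein-coding genes whose transcript was at most 3 times as long as the coding sequence, were kept. Promoters are those of RefSeq. Scripts ran in Python 3.11.15 with scipy 1.17.1, pandas 2.3.3, matplotlib 3.10.9 and numpy 2.4.6. The counts of genes past the fold and the steps of fragments were tested on simulated data first.

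The 33 genes and the lists were chosen with earlier results of these data known. Named are all 33 genes, the list genes past the fold or else the 2 with the highest mean, Gapdh beside the reference genes, the most abundant markers of the lists that stood apart and of Schwann cells, and the copies. Some genes that this rule names are not reported here. Genes named beyond this rule were chosen after their values were seen. Alternatives were a pseudocount of 0.1, minimum means of 5 or none, 3 scalings, folds of 2 and 5/4, and pooling with copies.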

Additional observations from a re-analysis of the deposited data

How the results depend on the processing

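No paired analysis was possible because only 1 FPKM per group is given, and leaving out a mouse could not be run for the same reason. A pseudocount of 0.1, no minimum, median-of-ratios scaling and pooling with copies at 98% or 90% identity left 5 of the genes past the fold. Of these, 1 was higher and 4 were lower. The pooling was chosen after seeing the data. With the pseudocount of 0.1 the 5 genes were 15.6%, against 21.7% of all genes. With median-of-ratios scaling they were 15.6%, against 16.7%. With no minimum they were 15.2%, against 7.14% of 50570 genes, of which only 15620 had a mean FPKM of at least 1. The FPKM + 1 scale understates the change of low genes, so this 7.14% is not a like background for these mostly well expressed genes. How close the share came to that of all genes thus depended on the setting and on which genes made up the background. At a minimum mean FPKM of 5 it was 4, since Pgam2 is below that minimum, or 14.3%. Of the 10205 genes with that minimum, 1378 were past the fold, or 13.5%, in place of 2603 of 15620, or 16.7%. Scaled to the same Gapdh, 8 were past it, or 25.0%, 7 of them lower, and the median log2 ratio was -0.32 in place of -0.06. Of all genes 3430 were then past it, or 22.5%, and the median was -0.27. Scaled to the other reference genes, 2 were past it, or 6.25%, 1 of them lower, and 2750 of all genes, or 17.5%. At a fold of 2 it was 2, or 6.25%, 1 of them lower, and 1237 of all genes, or 7.92%. At a fold of 5/4 it was 10, or 31.25%, 4 of them higher, and 5646 of all genes, or 36.1%. No single gene that was past the fold changed direction. Depth limits Pgam2 and Aldoc most, and 3 fragments in the shallower library correspond on 1 kilobase to 0.139 FPKM in HSF V30M against 0.195 in HSF WT.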

Other observations

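Some low copies of Gapdh had fragments in 1 group and few or none in the other. Gm2451, 99.6% identical over 999 coding bases, reached 1.66 FPKM in the group labelled HSF V30M, or 29 to 34 fragments in a library, and was listed at 0 in HSF WT. Gm4804, 92.5% identical, had 5.22 and 0.502. These lay in the direction opposite to Gm13394, which was listed at 0 and 69.7. Of the copies with at least 98% identity to any of the 33 genes, 9 were listed at 0 in both groups.

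The copies of the reference gene Rplp0 held a larger share of its pooled level than those of most of the 33 genes, at 30.5% in HSF V30M against 26.8% in HSF WT. Its copy Gm8730, 98.7% identical, had an FPKM of 174 and 218. Here the share was similar in both groups, unlike that of Eno1, at 0.208% and 31.6%.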
